A study of Homo sapiens with 8 samples.

Results

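The genes of neuroendocrine peptides and secretory granules, 42 in all, were followed on 8 arrays of 2 thyroid cell lines. They were chosen by name, as genes known to make, process, store or release peptides and amines, and comprise 6 granins, 6 prohormone processing genes, 13 peptides, 7 genes of the granule membrane and its release, 6 genes of amine synthesis and storage and 4 neuroendocrine or tumour markers. All 42 were on the array, with 52 of its 50599 probes and 42 of its 36337 gene names. Of the 42, 33 had 1 probe and 9 had 2 or 3, and the probe with the highest mean over the 8 arrays stood for each gene.

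Nthy-ori 3-1 was derived from normal follicular cells of the thyroid and immortalized. TT is a line from a medullary thyroid carcinoma, a tumour of the calcitonin-producing C cells, with a RET mutation of the MEN2A type. The 4 groups of 2 arrays were Nthy-ori 3-1 CTL, Nthy-ori 3-1 pre-miR-375 (a synthetic precursor of the miRNA), TT CTL and TT antagomiR-375 (an inhibitor of the miRNA), each 48 h after transfection. The labels call the controls CTL only. The transfection methods name pre-miR-CTL and antagomiR-CTL, while the array methods name pre-miR-CTL and, for TT cells, only a CTL. The labels give 5 nM for precursors and 20 nM for antagomiRs, below the concentrations in the methods, and name polyA RNA where the methods name total RNA. Both lines are single lines, grown in different media, and no untransfected cells are among the groups.

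Endocrine cells package peptide hormones in dense-core secretory granules. Granins drive the condensation of the granule core, prohormone convertases cut precursors inside the granule, carboxypeptidase E and peptidylglycine alpha-amidating monooxygenase finish the peptide ends, and calcium triggers fusion of the granule with the cell surface. C cells and medullary carcinomas are known for calcitonin, chromogranin A and carcinoembryonic antigen, and some also make somatostatin or gastrin-releasing peptide.

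The miRNA that both reagents address is shown first, 5′ to 3′, with bases 2 to 8 (its seed, the part that pairs with targets) in capitals. RefSeq places it on the minus strand of GRCh38.p14 at chr2:219001648-219001669.
hsa-miR-375-3p: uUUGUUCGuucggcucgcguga

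Several granin and peptide genes are known to respond to cAMP through an element that the factor CREB binds, TGACGTCA, which reads the same on both strands. In RefSeq promoter windows of GRCh38.p14, from 250 bases before to 50 after each start, 34 of the 42 genes had an entry (no entry was found for CHGB, SCG2, GAL, PTPRN2, CADPS2, SLC18A1, TH and NCAM1). The full element lay in 6 of the 46 windows of the 34 genes and in 1.85% of the 35116 windows of all genes. The 6 were windows of CHGA, VGF, PCSK1, SST, CARTPT and SLC18A2. CARTPT and SLC18A2 were not well above background in any of the 4 groups. The 100 bases before the start of the other 4, whose values recur below, are shown with the element in capitals, at chr14:92923050-92923149 (plus strand) for CHGA, chr7:101165570-101165669 (minus strand) for VGF, chr5:96433249-96433348 (minus strand) for PCSK1 and chr3:187670395-187670494 (minus strand) for SST.
CHGA: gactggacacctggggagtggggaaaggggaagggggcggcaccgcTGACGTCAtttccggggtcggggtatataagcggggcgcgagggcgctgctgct
VGF: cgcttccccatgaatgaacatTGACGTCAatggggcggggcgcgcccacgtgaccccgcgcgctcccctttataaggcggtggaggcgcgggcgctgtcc
PCSK1: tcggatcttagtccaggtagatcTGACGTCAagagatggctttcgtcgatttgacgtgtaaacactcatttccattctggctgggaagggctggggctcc
SST: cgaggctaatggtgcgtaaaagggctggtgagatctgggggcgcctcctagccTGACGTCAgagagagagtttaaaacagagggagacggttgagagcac
The shorter motif TGACG or its reverse complement CGTCA, both of which the full element contains, lay in 21 of the 46 windows of these genes (45.7%) and in 24.6% of all windows. These matches describe the sequence only, and binding was not measured.

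**Figure D1:**
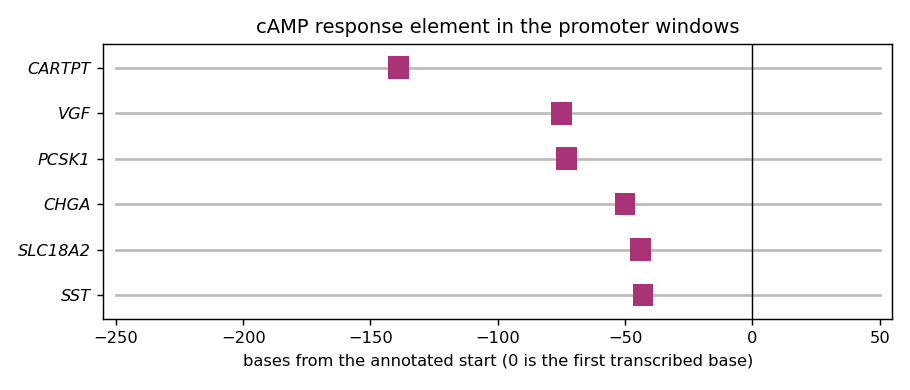
Position of the element TGACGTCA (bars) in the promoter windows (grey lines) of the 6 genes that hold it, in bases from the annotated start. In 5 of them the element begins between -79 and -47, and in CARTPT at -143.

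Levels are log2 values of background-subtracted spot intensity after quantile normalization over the 8 arrays. A probe counted as present in a group when it was well above background on both arrays, by the scanner software's own flag. The arrays had 26104 to 30926 probes well above background, the pre-miR-375 array of replicate 2 having the most among the Nthy-ori 3-1 arrays (29221, against 26104 to 27027), and 0 saturated spots. Each slide held 1 line, with its CTL and treated array of equal replicate number. The RNA integrity number was 8 for both TT CTL arrays and 9 for the other 6, so within TT it cannot be told apart from treatment. Of markers of the labelled cells, CALCA (calcitonin) and RET were present in TT CTL, while CALCA was not in Nthy-ori 3-1 CTL. The follicular genes PAX8 and FOXE1 were present in Nthy-ori 3-1 CTL, whereas TSHR and NKX2-1 were not, NKX2-1 and TG were higher in TT, and SLC5A5 did not differ beyond the spread. The smallest two-sided p of an exact permutation test with 2 arrays per group is 0.333, so tests rest on limma fits across all probes. Statements below on whether arrays of 2 groups overlap are descriptions only, without the share of all probes beside them.

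The first comparison was between the lines, TT CTL against Nthy-ori 3-1 CTL. Most of the granule genes were higher in TT: all 6 granins, 4 of 6 processing genes, 5 of 13 peptides, 4 of 7 granule membrane and release genes, 2 of 6 amine genes and all 4 markers passed the test, 25 of 42 in all. At the same threshold, a Benjamini-Hochberg adjusted p of at most 0.05 in limma, 14.8% of 50582 probes were higher in TT. QPCT, GAL, NPY, RAB3B and RAB27A passed in the other direction, 5 of 42, where 15.3% of all probes did. Of the 42 genes, 33 (78.6%) were present in TT CTL and 18 (42.9%) in Nthy-ori 3-1 CTL, against 56.1% and 49.8% of all probes. In TT CTL alone 16 were present (38.1%, against 10.5% of all probes), 17 in both, and QPCT in Nthy-ori 3-1 CTL alone. Line, medium, slide, control reagent, its labelled dose (5 or 20 nM) and RNA integrity number (9 or 8) cannot be told apart in this comparison.

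**Figure D2:**
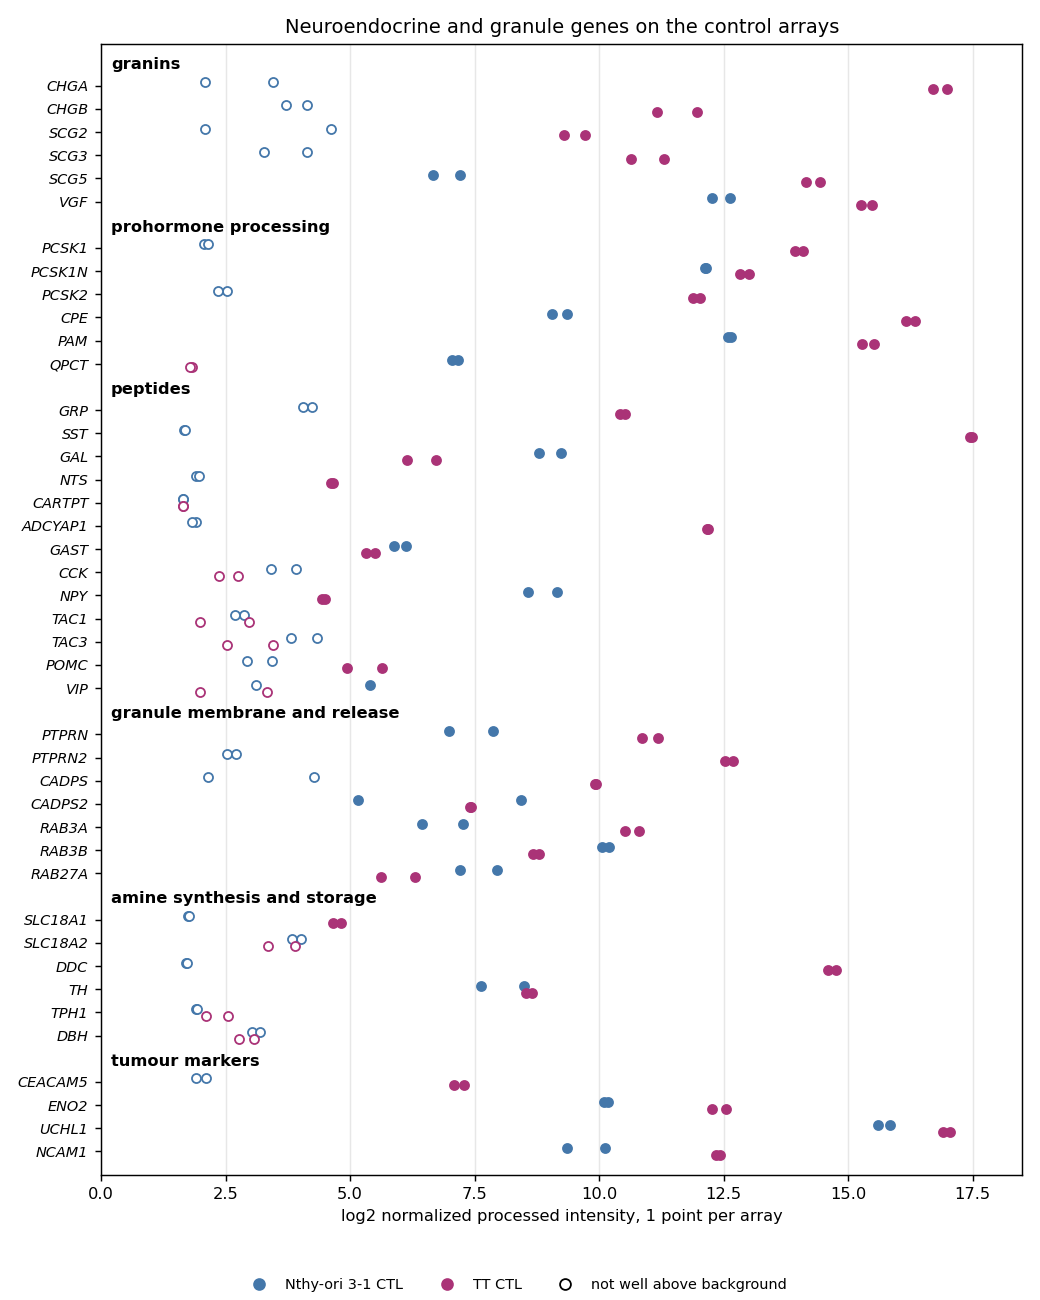
Log2 normalized intensity of the 42 genes on the 2 Nthy-ori 3-1 CTL arrays (blue) and the 2 TT CTL arrays (purple), by functional group, 1 point per array, with open points where the probe was not well above background. Purple points lie to the right of the blue ones for every granin, and to their left for QPCT (open in TT), GAL, NPY, RAB3B and RAB27A. Levels of different genes come from different probes and are not comparable.

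Granins are acidic proteins of the granule core. CHGA, chromogranin A, the serum marker of neuroendocrine tumours, had log2 levels of 16.71 and 16.98 on the TT CTL arrays and was not well above background in Nthy-ori 3-1 CTL, where it was measured at 3.46 and 2.09. It was at least 5750-fold higher in TT (adjusted p = 4.59e-05). Here and below, "at least" compares the brighter group with, on each array of the other group, the higher of the dimmest signal well above background and the probe's own signal. CHGB, chromogranin B, was at 11.16 and 11.97 in TT and at 3.72 and 4.13, below that limit, in Nthy-ori 3-1 cells, at least 148-fold higher (adjusted p = 0.000254). SCG3, which tethers CHGA to the granule membrane, was at 10.64 and 11.31 in TT and at 4.14 and 3.26 in Nthy-ori 3-1 cells, at least 98.3-fold higher (adjusted p = 0.000625). SCG2, the precursor of secretoneurin, was at least 32.8-fold higher (adjusted p = 0.0033).

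The remaining 2 granins were present in both lines. SCG5, also called 7B2, the chaperone of the convertase PCSK2, was at 14.15 and 14.43 in TT and at 6.66 and 7.21 in Nthy-ori 3-1 cells, a log2 difference of 7.36 (SE 0.306, adjusted p = 5.7e-05). VGF, the precursor of several neuropeptides, was already high in Nthy-ori 3-1 cells, at 12.26 and 12.63, and stood at 15.26 and 15.48 in TT, a 7.59-fold difference (adjusted p = 0.000498). For no granin did the arrays of the 2 lines overlap, and the share of all probes for which this held was not computed.

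Both granule convertases were present in TT alone. PCSK1, which makes the first cuts in many prohormones, was at 13.93 and 14.10 in TT and at 2.06 and 2.14 in Nthy-ori 3-1 cells, at least 806-fold higher (adjusted p = 2.77e-06). PCSK2, which acts after it, was at 12.03 and 11.89 against 2.53 and 2.34, at least 194-fold higher (adjusted p = 9.22e-06). CPE, which trims basic residues from the cut ends, was 131-fold higher (log2 difference 7.04, SE 0.183, adjusted p = 1.22e-05), and PAM, which amidates peptides such as calcitonin, 6.85-fold (2.78, SE 0.154, adjusted p = 0.000151; the second PAM probe had 2.65). PCSK1N, a precursor of PCSK1 inhibitors, was at 12.13 and 12.14 in Nthy-ori 3-1 cells and at 13.01 and 12.82 in TT, and did not pass (0.78, SE 0.404, adjusted p = 0.238). QPCT, which forms pyroglutamate at peptide starts, went the other way. It was at 7.05 and 7.17 in Nthy-ori 3-1 cells and below the limit in TT, at least 13.1-fold lower in TT (adjusted p = 3.73e-05), and its second probe was also lower in TT.

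Of the 13 peptides, somatostatin had the highest lower bound of the fold between the lines. SST, an inhibitor of hormone release that some C cells make, was at 17.45 and 17.50 in TT CTL and at 1.67 and 1.69 in Nthy-ori 3-1 CTL, at least 8880-fold higher (adjusted p = 2.77e-06). ADCYAP1, the precursor of PACAP, which raises cAMP, was at 12.18 and 12.16 against 1.91 and 1.83, at least 225-fold higher (adjusted p = 2.77e-06). GRP, gastrin-releasing peptide, a growth factor for neuroendocrine tumours, was at least 69.4-fold higher (adjusted p = 9.31e-06). POMC, the precursor of ACTH, was at least 1.91-fold higher (adjusted p = 0.00754) and NTS, neurotensin, at least 1.21-fold (adjusted p = 0.000302), both close to background also in TT. 

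GAL and NPY were the peptides with more RNA in Nthy-ori 3-1 cells. NPY, neuropeptide Y, was at 9.15 and 8.58 there and at 4.44 and 4.51 in TT, 21.0-fold lower in TT (adjusted p = 0.000162). GAL, galanin, was 5.95-fold lower in TT (log2 difference -2.57, SE 0.288, adjusted p = 0.00185), while its dimmer second probe differed by -0.46 and did not pass. GAST, gastrin, was present in both lines and did not differ beyond the spread (-0.59, SE 0.358, adjusted p = 0.316). CARTPT, CCK, TAC1, TAC3 and VIP were not present in either control group, VIP being well above background on 1 Nthy-ori 3-1 CTL array.

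The granule membrane phosphatase-like proteins PTPRN (IA-2) and PTPRN2 (IA-2 beta) were both higher in TT. PTPRN2 was at 12.54 and 12.69 against 2.52 and 2.71, at least 306-fold higher (adjusted p = 4.62e-06), while its second probe, well above background on 1 of the Nthy-ori 3-1 CTL arrays, was also higher in TT (adjusted p = 0.0284). PTPRN was 12.1-fold higher (log2 difference 3.59, SE 0.415, adjusted p = 0.00207). CADPS, which primes granules for fusion, was at least 47.7-fold higher (adjusted p = 0.00127), while its second probe, at least 3.28-fold higher, did not pass (adjusted p = 0.254). Its relative CADPS2 did not pass (0.63, SE 1.17, adjusted p = 0.777). Its Nthy-ori 3-1 CTL arrays were far apart, at 8.43 and 5.16, on either side of 7.42 and 7.44 in TT. Its difference was 2.27 (adjusted p = 0.00309) without the first of these arrays and -1.01 (adjusted p = 0.0294) without the second.

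Among the small GTPases that bring granules to the membrane, all 3 were present in both lines at different levels. RAB3A was 13.9-fold higher in TT (log2 difference 3.80, SE 0.325, adjusted p = 0.000695). RAB3B was 2.63-fold lower in TT (-1.40, SE 0.124, adjusted p = 0.000793) and RAB27A 3.08-fold lower (-1.62, SE 0.357, adjusted p = 0.0216). RAB27A did not pass in the 4 control arrays alone (adjusted p = 0.0826), without TT CTL replicate 2 (0.0629) or without Nthy-ori 3-1 CTL replicate 2 (0.0945).

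In the amine pathway, DDC, the decarboxylase that makes dopamine and serotonin, was at 14.59 and 14.75 in TT and at 1.71 and 1.73 in Nthy-ori 3-1 cells, at least 1280-fold higher (adjusted p = 2.77e-06); its second probe was not well above background in any group. SLC18A1, the vesicle transporter VMAT1, was present only in TT and at least 1.30-fold higher (adjusted p = 0.000191). TH, tyrosine hydroxylase, was present in both lines and did not differ beyond the spread (0.53, SE 0.395, adjusted p = 0.421). SLC18A2 (VMAT2), TPH1 and DBH were not present in either.

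All 4 markers were higher in TT. CEACAM5, carcinoembryonic antigen, was at least 7.14-fold higher (adjusted p = 7.42e-05). NCAM1 was 6.22-fold higher (adjusted p = 0.00131), ENO2, neuron-specific enolase, 4.78-fold (adjusted p = 0.00133) and UCHL1, also called PGP9.5, 2.40-fold (adjusted p = 0.0035), these 3 being well expressed in Nthy-ori 3-1 cells too. The probes of NCAM1 disagreed, the other 2 having log2 differences of -1.01 and 2.12 that did not pass.

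With the deposited table in place of the processed intensities, POMC and SLC18A1 no longer passed (log2 differences 0.30 and 0.29), and GAST, CCK and TAC3 passed as lower in TT, giving 8 members lower, where 32.4% of all probes were lower and 11.1% higher and the median over all probes was -0.31. That table was normalized within each line, so levels set across the lines rest on separate normalizations. Differences that include a dim group also depended on the background correction, and the folds and lower bounds above hold on the scale of the processed intensities. With the normexp correction the log2 difference was -2.70 for NPY, -1.01 for RAB27A, 3.17 for RAB3A and 6.70 for SCG5, and for SST, CHGA and DDC, which have lower bounds above, it was 11.76, 10.88 and 8.86. All 7 passed in that setting.

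The second comparison asked which transcripts changed when miR-375 was inhibited in TT cells, where it is abundant. No gene passed the test, and 4 members, SLC18A1, CEACAM5, RAB3B and GRP, had the most positive values. By limma, 0 of the 42 genes passed an adjusted p of 0.05, as did 0% of all 50587 probes, the smallest value being 0.512. At an unadjusted p under 0.05, 6 members were higher with antagomiR-375 (VGF, PCSK1, GRP, RAB3B, SLC18A1 and CEACAM5), where 4.91% of all probes were, and 2 were lower (NTS and SLC18A2), where 4.82% were. SLC18A2 was not well above background on any TT array. Of the 42, 33 were well above background on at least 3 of the 4 TT arrays. Of these 33, 18 were higher in both pairs of arrays, 6 were lower in both and 9 went either way. That count was not made over all probes. By the fitted difference, 23 of the 33 were higher and 10 lower. Of 28726 probes under the same filter, 13907 were higher and 14819 lower. The median log2 difference of the 33 was 0.15, against -0.01 over these probes. A log2 difference of 0.6 or more in both pairs was found for 4 of the 33 on the higher side, where 2.04% of all probes were, and for 0 on the lower side, where 1.09% were. No member was well above background on both antagomiR-375 arrays and on neither CTL array (0.273% of all probes) or the reverse (0.567%).

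**Figure D3:**
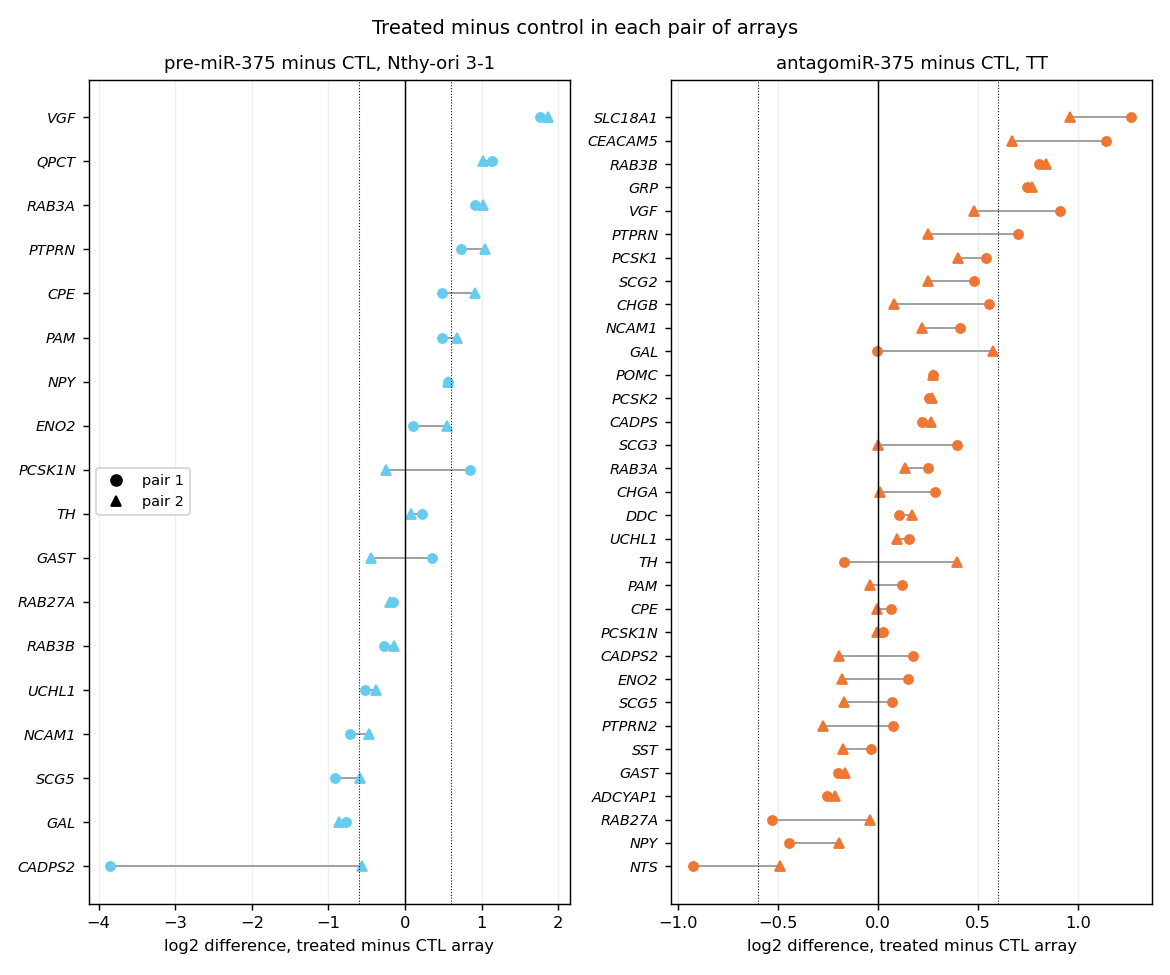
Log2 difference of each treated array from the CTL array of its slide, for the 18 genes in Nthy-ori 3-1 cells (left) and the 33 in TT cells (right) that were well above background on at least 3 of 4 arrays, with pair 1 as circles and pair 2 as triangles. Dotted lines mark 0.6 in either direction, and the horizontal scales of the panels differ. VGF, QPCT, RAB3A and PTPRN lie beyond 0.6 in both pairs on the left, and SLC18A1, CEACAM5, RAB3B and GRP on the right.

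Of these 4, RAB3B and GRP had the more even values. RAB3B was at 8.80 and 8.67 on the CTL arrays and at 9.61 and 9.51 on the antagomiR-375 arrays, a log2 difference of 0.82 (SE 0.0833, adjusted p = 0.512). GRP was at 10.52 and 10.43 against 11.26 and 11.20 (0.76, SE 0.083, adjusted p = 0.512). For both, each treated array lay above both control arrays, with pair values of 0.81 and 0.84 for RAB3B and 0.74 and 0.77 for GRP.

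SLC18A1 and CEACAM5 had larger but less even values. SLC18A1 was at 4.81 and 4.67 against 6.08 and 5.63 (1.11, SE 0.132, adjusted p = 0.512), and its second probe, not well above background on 1 of the CTL arrays, also had higher values on both treated arrays. CEACAM5 was at 7.09 and 7.29 against 8.23 and 7.96 (0.90, SE 0.181, adjusted p = 0.512). Treated arrays lay above control arrays for both. With the normexp background correction the difference of SLC18A1 was 0.45, and with the deposited values 0.56. CEACAM5 kept a difference of at least 0.63 in each setting run, but in these settings it was not past 0.6 in both pairs. GRP and RAB3B alone stayed beyond 0.6 in both pairs in these settings.

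A granin and a granule membrane gene were also higher in both pairs. VGF was at 15.26 and 15.48 against 16.17 and 15.96 (0.70, SE 0.169), and PTPRN at 10.87 and 11.18 against 11.57 and 11.42 (0.48, SE 0.176), with an adjusted p of 0.512 and 0.551. The pairs differed, with 0.91 and 0.48 for VGF and 0.70 and 0.25 for PTPRN.

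The 6 members that were lower in both pairs were 5 peptides and a GTPase. NTS was at 4.66 and 4.62 against 3.73 and 4.13 (-0.71, SE 0.17, adjusted p = 0.512), close to background, and it was no longer well above background on 1 of the treated arrays. With the normexp correction its difference was -0.16, and with the deposited values -0.21. NPY was at 4.44 and 4.51 against 4.00 and 4.31 (-0.32, SE 0.118), and RAB27A at 6.30 and 5.61 against 5.77 and 5.57 (-0.29, SE 0.186). Over the settings run, NPY ranged from -0.44 to -0.09 and RAB27A from -0.53 to -0.04. For NTS and NPY the groups did not overlap, and for RAB27A they did.

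The other 3 had small differences. ADCYAP1 was at 12.18 and 12.16 against 11.93 and 11.94 (-0.23, SE 0.0835), GAST at 5.50 and 5.33 against 5.29 and 5.16 (-0.18, SE 0.0835), and SST at 17.45 and 17.50 against 17.42 and 17.32 (-0.10, SE 0.096). GAST ranged from -0.23 to -0.07 over the settings, and SST from -0.28 to -0.03. The adjusted p of the 5 after NTS was 0.543 to 0.712.

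The other 5 granins had smaller values than VGF. CHGA was at 16.71 and 16.98 against 16.996 and 16.986 (0.15, SE 0.125), CHGB had 0.32 (SE 0.183), SCG2 0.37 (SE 0.114), SCG3 0.20 (SE 0.159) and SCG5 -0.05 (SE 0.116). The pairs differed, with 0.555 and 0.078 for CHGB and 0.398 and 0 for SCG3. Of the processing genes, PCSK1 had 0.47 (SE 0.0954) and PCSK2 0.26 (SE 0.0827), positive in both pairs, and CPE, PAM and PCSK1N had 0.01 to 0.04.

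The third comparison asked what miR-375 does once brought into the follicular line, which has little of it. Again no gene passed the test, and the granule genes had values in both directions. By limma, 0 of the 42 genes and 0% of all 50594 probes passed at the same threshold, where the smallest adjusted p was 0.318. At an unadjusted p under 0.05, 9 members were higher with pre-miR-375, where 7.08% of all probes were, and 5 were lower, where 7.26% were. The 9 were CHGB, SCG2, VGF, PAM, QPCT, NPY, TAC3, PTPRN and RAB3A, and the 5 SCG5, GAL, POMC, UCHL1 and NCAM1. CHGB, SCG2 and TAC3 were not well above background on either CTL array, and POMC on no array of this line. On at least 3 of the 4 arrays of this line, 18 members were well above background. Of these, 9 were higher in both pairs, 7 lower in both, and PCSK1N and GAST went either way, a count not made over all probes. By the fitted difference, 10 of the 18 were higher and 8 lower. Of 25920 probes under the same filter, 13768 were higher and 12152 lower. The median log2 difference of the 18 was 0.23, against 0.03 over these probes. Beyond 0.6 in both pairs, 4 of the 18 were higher (VGF, QPCT, PTPRN and RAB3A), where 4.46% of all probes were, and GAL was lower, where 6.15% were. The direction of the 4 and of GAL was the same under each scaling run. With the normexp correction PTPRN was no longer past 0.6, leaving 3, where 2.2% of all probes were higher. GAL stayed past it on the lower side, where 4.07% were.

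VGF had the most positive value of the 18. Its probe, at chr7:100805799-100805858 of hg19, read 12.26 and 12.63 with CTL and 14.02 and 14.50 with pre-miR-375, a 3.52-fold difference (log2 1.81, SE 0.0882, adjusted p = 0.318). The pairs gave 1.76 and 1.87, and both treated arrays lay above both control arrays. VGF passed the test with the normexp correction (adjusted p = 0.0234), with the deposited values (0.0366) and when dim probes were left out (0.0399). VGF was thus on the higher side both with the precursor in Nthy-ori 3-1 cells and with the inhibitor in TT cells, and whether the 2 differences themselves differ was not tested.

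QPCT was at 7.05 and 7.17 with CTL and at 8.19 and 8.19 with pre-miR-375 (log2 difference 1.08, SE 0.0889, adjusted p = 0.318), and its second probe had 1.06. RAB3A was at 7.28 and 6.44 against 8.19 and 7.47 (0.97, SE 0.0878, adjusted p = 0.318), and PTPRN at 6.99 and 7.86 against 7.73 and 8.91 (0.89, SE 0.136, adjusted p = 0.318). The treated arrays lay above the control arrays for QPCT and RAB3A, whereas for PTPRN the groups overlapped and the difference showed only within slides. QPCT and RAB3A passed with the normexp correction (adjusted p = 0.0382 and 0.0448) and when dim probes were left out (0.0478 and 0.0499).

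The processing enzymes CPE and PAM followed. CPE was at 9.36 and 9.06 against 9.84 and 9.97 (0.70, SE 0.175, adjusted p = 0.361), and PAM at 12.59 and 12.65 against 13.07 and 13.34 (0.58, SE 0.107, adjusted p = 0.326). Treated and control arrays did not overlap for either, while the second PAM probe had 0.37 with overlap. NPY (0.56), TH (0.15) and ENO2 (0.32) were the other members that were higher in both pairs.

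On the lower side, GAL was at 9.23 and 8.79 with CTL and at 8.46 and 7.93 with pre-miR-375 (-0.81, SE 0.0867, adjusted p = 0.318), without overlap; its second probe had -0.23. GAL passed with the normexp correction (adjusted p = 0.0441). SCG5 was at 6.66 and 7.21 against 5.75 and 6.62 (-0.75, SE 0.141, adjusted p = 0.327), and NCAM1 at 10.13 and 9.36 against 9.41 and 8.89 (-0.60, SE 0.118, adjusted p = 0.331). For NCAM1 the groups overlapped, and for SCG5 they did not. The other NCAM1 probes had -0.90 and -0.43, the last with pairs of opposite sign.

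UCHL1 was at 15.59 and 15.84 against 15.07 and 15.47 (-0.45, SE 0.0963, adjusted p = 0.339), and RAB3B at 10.20 and 10.07 against 9.92 and 9.93 (-0.21, SE 0.0939, adjusted p = 0.507), both without overlap. RAB27A had -0.18. Of the 18, CADPS2 had the fitted value farthest from 0, -2.21 (SE 1.16, adjusted p = 0.563), and this rested on 1 array. It was at 8.43 and 5.16 with CTL and at 4.59 and 4.59 with pre-miR-375, and on 1 of the pre-miR-375 arrays it was not well above background, so that of the pair values of -3.85 and -0.57 the first includes an undetected level.

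CHGA, CHGB, SCG2 and SCG3, granins that TT cells express, crossed the detection limit in Nthy-ori 3-1 cells, which was noticed after their values were seen. They were well above background on both pre-miR-375 arrays and on neither CTL array, 4 of 42 members, where 0.613% of all probes were. In the reverse direction there were 0 of 42, where 0.184% were. SCG2, whose probe lies at chr2:224462469-224462528 of hg19, was measured at 2.10 and 4.62 with CTL and at 6.72 and 8.42 with pre-miR-375, at least 8.60-fold higher (adjusted p = 0.318). CHGB was at 3.72 and 4.13 against 5.19 and 6.51, at least 2.81-fold higher (adjusted p = 0.322). SCG3 was at 4.14 and 3.26 against 5.11 and 6.05, at least 2.33-fold (adjusted p = 0.431), and CHGA at 3.46 and 2.09 against 4.91 and 5.13, at least 1.59-fold (adjusted p = 0.363).

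Treated arrays lay above control arrays for all 4 of these granins. Since the 4 were picked by detection on the treated arrays alone, this adds no support. The bounds of these granins hold on the scale of the processed intensities. With the normexp correction the fitted log2 differences were 1.67 for SCG2, 0.63 for CHGB, 0.53 for SCG3 and 0.50 for CHGA, and with the deposited values 1.84, 0.83, 0.60 and 0.45. Other genes that are high in TT were not well above background on the same pre-miR-375 arrays, SST at 1.67 and 1.67, DDC at 1.73 and 1.71, ADCYAP1 at 1.93 and 1.84, and PCSK1 at 2.28 and 2.05. From the lists of related genes, 1 of 27 prohormones (CALCA) and 2 of 32 granule biogenesis and exocytosis genes (RAB3C and SYP, synaptophysin) also crossed the limit. Of 23 receptors, 8 processing enzymes and 11 amine genes 0 did, and the share of all probes was 0.613%. CALCA was at 3.91 and 3.57 with CTL and at 8.12 and 4.51 with pre-miR-375. SYP was at 1.91 and 2.11 against 5.495 and 6.155, and RAB3C at 4.03 and 3.34 against 5.32 and 4.89. The part of detection in these values, given the larger number of probes above background on the array of replicate 2, was not tested.

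**Figure D4:**
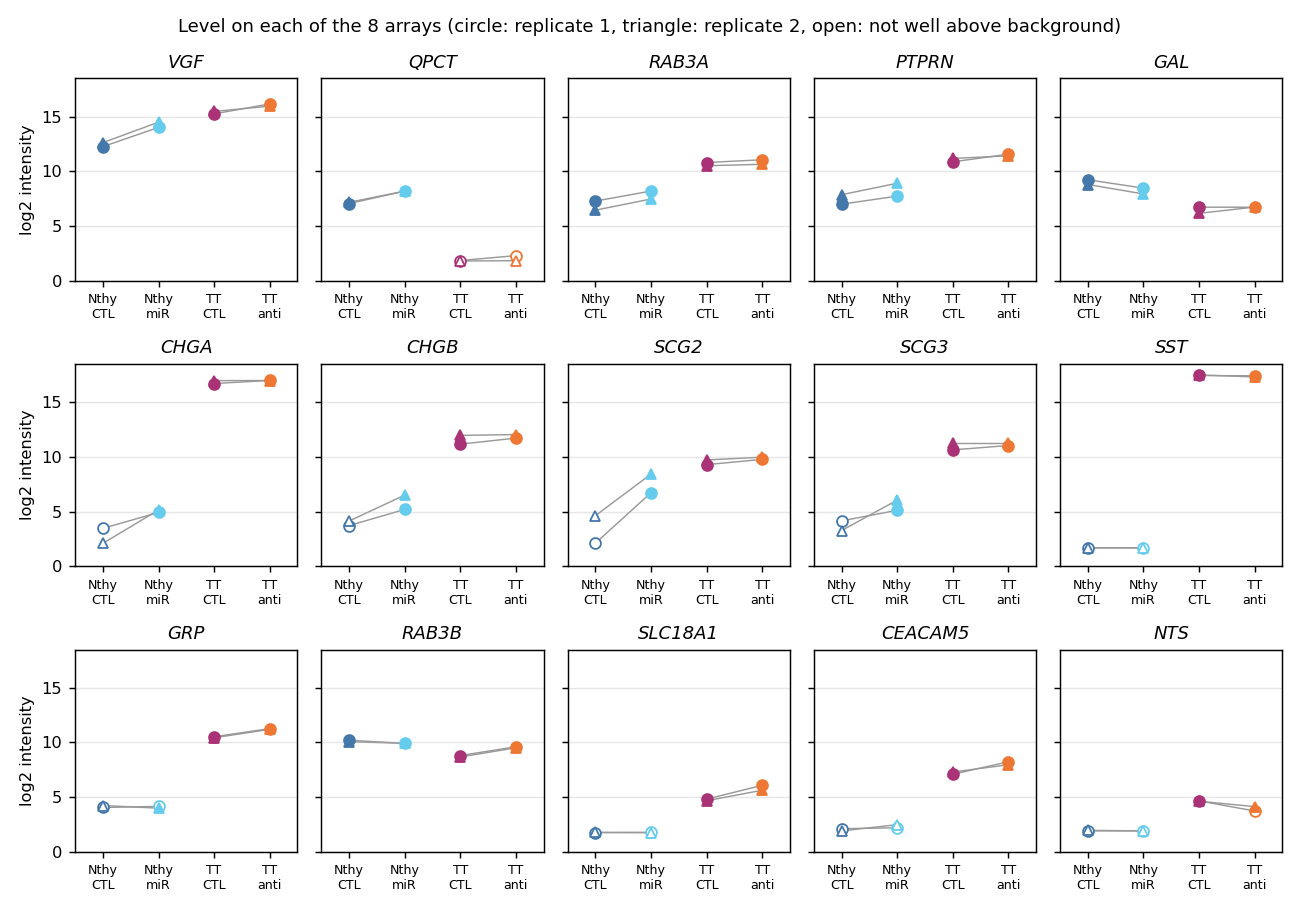
Log2 intensity of 15 of the genes on each of the 8 arrays, with grey lines joining the CTL and treated array of a slide. CHGA, CHGB, SCG2 and SCG3 turn from open (not well above background) to filled points on the pre-miR-375 arrays, and SST lies at 1.67 to 1.69 on the 4 Nthy-ori 3-1 arrays.

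Related genes of the pathway were counted by list. Between the lines, 19 of 32 other genes of granule biogenesis and exocytosis were higher in TT and 2 lower, where 14.8% and 15.3% of all probes were. Of the 19, SYT9 was not well above background on any array and SYT5 on 1 of the 4 control arrays only. SCGN (secretagogin, a calcium sensor) was at least 586-fold and SYT4 (synaptotagmin 4) at least 72.5-fold higher, and KIF1A, which carries granules along microtubules, was at 12.05 and 12.36 in TT and at 4.62 in Nthy-ori 3-1 CTL, where 1 of the 2 arrays was not well above background (adjusted p = 4.28e-05). Of 27 other prohormones, 7 were higher in TT and 3 lower, against the same shares of all probes, and PENK among the 7 was not well above background on any array. CALCA was at least 18700-fold and CRH at least 14.4-fold higher, and NPPB, the precursor of brain natriuretic peptide, had -7.74 (adjusted p = 0.000441).

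Of 23 peptide receptors, 8 were higher in TT and 1, SORT1, was lower, where 14.8% and 15.3% of all probes were, shares that also stand beside the counts of this paragraph that follow. NTSR1, a neurotensin receptor, was at least 17.3-fold and CCKBR, the gastrin receptor, at least 7.14-fold higher, and SSTR2, the main somatostatin receptor of neuroendocrine tumours, was at 9.34 and 9.29 in TT and at 5.47 in Nthy-ori 3-1 CTL, where 1 of the 2 arrays was not well above background (adjusted p = 0.0194). Of 11 other amine genes, 9 were higher in TT and 0 lower, with TPH2 at least 12.9-fold higher, MAOA at 4.05 and GCH1 at 3.83. Of 8 other processing enzymes, CPD was higher (1.61, adjusted p = 0.0241), CPZ lower (6.68 and 6.77 in Nthy-ori 3-1 CTL and not well above background in TT CTL, adjusted p = 0.000162) and QPCTL lower (-2.55, adjusted p = 0.0124). The mesenchymal markers VIM, COL1A1, COL1A2 and FN1, 4 of 4, were lower in TT, COL1A2 being present in neither control group. The part of differences in cell type in these values was not tested.

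In the treatment comparisons, no listed gene passed the test. With antagomiR-375 in TT cells, FURIN, a convertase of the Golgi, had 0.81 (5.58 and 5.60 against 6.47 and 6.33), DOC2B 0.82 and IAPP -0.71, each beyond 0.6 in both pairs. These were 1 of 5 processing enzymes, 1 of 28 granule biogenesis and exocytosis genes and 1 of 21 prohormones well above background on at least 3 arrays, where 2.04% of all probes were higher and 1.09% lower, and the receptors (15) and amine genes (11) had 0. On the pre-miR-375 arrays, FURIN had 1.03 (5.17 and 5.89 against 6.15 and 6.98), PTHLH 1.06, MC1R 0.91, SORT1 0.72 and SNAP25 0.70, each past 0.6 in both pairs. ADM, adrenomedullin, had -1.39. Each was among the 3 genes of its list with the largest differences in either direction. That ranking covers only genes well above background on at least 3 arrays of the line, and some dimmer genes had larger fitted values. In all, 2 of 17 prohormones, 3 of 8 receptors, 1 of 6 processing enzymes, 2 of 20 granule biogenesis and exocytosis genes and 0 of 7 amine genes were past 0.6 on the higher side, where 4.46% of all probes were, and ADM was the only one on the lower side, where 6.15% were. RLN2 (relaxin 2), outside that rule and added after its values were seen, was also past 0.6 in both pairs (0.86). SSTR2 was at 5.47 with CTL and 7.77 with pre-miR-375 in pair 1, and in pair 2 at 4.52 with pre-miR-375 and not well above background with CTL. RAB3D was at 4.87 against 5.85 in pair 1, and its CTL array of pair 2 was also not well above background. For FURIN, PTHLH, MC1R, SORT1, SNAP25, RLN2 and ADM both treated arrays lay on the same side of both control arrays. Of the mesenchymal markers, COL1A1 (14.21 and 13.39 against 14.83 and 14.70) and FN1 (11.22 and 10.82 against 10.46 and 9.74) were past 0.6 in both pairs, in opposite directions, and VIM had -0.05. Their part in the values of the granule genes was not tested.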

How the data were processed

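RNA of 8 samples was hybridised to 8 one-colour arrays. For each array the authors deposited the spot intensity values of Agilent Feature Extraction 10.10.1.1, not normalized between arrays, and for the series a table of log2 values, read here from its values as log2 median intensity, quantile normalized within each line. Control spots and outlier spots (341 to 428 per array) were left out, log2 processed intensities of spots of a probe were averaged (10 spots for 902 probes), and the 8 arrays were quantile normalized (limma 3.58.1, R 4.3.3). Each line was fitted alone, with the replicate number as a block, since the file headers place arrays of equal number on the same slide. Replicate numbers are those of the sample titles, which the slides match. The source labels of the TT samples carry other numbers. Replicate differences of control and treated arrays had a correlation of 0.785 (Nthy-ori 3-1) and 0.33 (TT). The lines were compared in a fit of all arrays with slide as a random block (consensus correlation 0.5004). Steps were tested on simulated data.

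The methods call the replicates biological. Members, lists and named genes were chosen with earlier results of these data known. Between the lines, every gene present in a control group was named; in each treatment, the 6 members with the largest positive and the 6 with the largest negative values among those present on at least 3 of 4 arrays and of the same sign in both pairs; and up to 3 genes per list with the largest values. Of 117 list entries, 115 were on the array, 4 under an older symbol. Promoter and miRNA sequences are from RefSeq. Some marker genes are not reported here.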

Additional observations from a re-analysis of the deposited data

How the results depend on the processing

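Alternatives were the normexp background correction, scaling to the 75th percentile, the deposited log2 values, outlier spots kept, dim probes left out, no replicate or slide block, other fits and normalizations of the lines, the mean of all probes of a gene, and leaving out arrays. In Nthy-ori 3-1 cells the 0 calls became 1560 probes with 4 members (VGF, QPCT, RAB3A and GAL) under normexp, 577 with 1 (VGF) with the deposited values and 999 with 4 (VGF, QPCT, RAB3A and SCG2) without dim probes, a filter that SCG2 passed only through its treated arrays. Leaving out 1 pair, with the spread taken from the other line, gave 565 to 1021 probes and 1 to 2 members. With no replicate block there were 0 calls in either line, and in TT cells 0 in each setting run. Between the lines, the deposited values gave 8 members lower in TT, where 32.4% of all probes were. At a fold threshold of 1, 2 members in Nthy-ori 3-1 cells were higher (VGF and QPCT; 1.06% of all probes) and 0 lower in both pairs (2.33%), and 0 in TT cells were higher (0.383%). With normexp, and with the deposited values, 2 members were higher in TT cells at 0.6 (0.696% and 0.752% of all probes). Crossing into detection with pre-miR-375 held for 4 to 6 members when 1 pair was left out (2.2% and 6.12% of all probes), an alternative chosen after seeing the data. Of named values, PCSK1N with pre-miR-375 ranged from -0.25 to 0.84 over the fits without 1 replicate, SCG5 and CADPS2 with antagomiR-375 from -0.17 to 0.068 and from -0.20 to 0.18, and CADPS2 between the lines from -1.01 to 2.27. The cause of these turns was not tested. Direction was kept in 173 of 174, 189 of 191 and 382 of 383 values computed under alternatives in the 3 comparisons, which cover the members named by rule with CHGA, CHGB, SCG2, SCG3, SCG5, PCSK1, PCSK1N and CADPS2, and no listed gene. With 2 arrays per group, 1 residual degree of freedom in each line and a prior of 0.994 and 1.13, an adjusted p over the threshold does not show that a gene was the same in both groups.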
